A study of Mus musculus with 6 samples.

Results

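The 9 genes described here are the hepcidin genes Hamp and Hamp2, transferrin (Trf) with its receptors Tfrc and Tfr2, the ferritin chains Fth1 and Ftl1, the iron exporter ferroportin (Slc40a1) and heme oxygenase 1 (Hmox1). They were found by Ensembl identifier among 16727 gene identifiers measured by RNA-seq in 6 mouse livers, and all 9 were measured in every liver. The livers came from F1 males of the C57BL/6 background, wild type (WT) by label, on normal chow under 12hr/12hr light and dark, and were taken in the refed state. The 3 iAsF1-M mice had fathers given inorganic arsenic (iAs, as sodium arsenite) in their drinking water before mating, and the 3 conF1-M mice had fathers on normal water. The mothers and the F1 mice themselves were not exposed, so the comparison asks whether iron genes in the liver of a son differed with the water his father drank. The labels name no father or litter and no age, so mice of a group may share a father or a litter, and the p-values measure only the spread between these livers.

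Hepcidin is a small peptide hormone made by hepatocytes. It binds ferroportin, the exporter through which hepatocytes, macrophages and gut cells release iron, and sends it for degradation, so that hepcidin lowers iron in the blood. Hepatocytes raise Hamp when endothelial cells of the sinusoids secrete BMP6 and BMP2, which act through SMAD proteins, and also when IL-6 acts through STAT3 in inflammation. Transferrin carries iron in the blood, TFRC takes it into cells, TFR2 senses it in hepatocytes, ferritin of FTH1 and FTL1 chains stores it, and HMOX1 frees it from heme.

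Levels were given as FPKM, fragments corrected for gene length and for the total of each library, rounded by the authors to 2 decimals. Depth, estimated from the steps between low values, was 20550000 to 22150000 fragments in the iAsF1-M livers and 20850000 to 23000000 in the conF1-M livers, so that 1 fragment on a transcript of 1 kb is worth 0.0435 to 0.0487 FPKM and every member stood far above that. Group differences were tested with limma on log2(FPKM + 1) for the 9695 genes that averaged 1 FPKM or more, and a fold change on this scale understates the change of low genes. The tissue label held: the hepatocyte gene Alb ranged over 26548 to 40155 FPKM in iAsF1-M livers and over 31682 to 37316 FPKM in conF1-M livers, and S100a8, a neutrophil gene, was at 1.06 FPKM or less in all 6. In the whole fit, 69.6% of genes tested had a log2 fold change below 0, with a median of -0.07.

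Across the 6 livers, the members spanned from Trf to Tfrc in level. Trf averaged 4603 FPKM, Ftl1 2807, Hamp 2062 and Fth1 1088, which placed these 4 among the 77 most abundant of the genes tested. Tfr2 averaged 94.6 FPKM, Slc40a1 31.8, Hamp2 15.97, Hmox1 9.81 and Tfrc 8.19. The ranges of Trf and Ftl1, of Hamp and Fth1, of Fth1 and Tfr2, and of Tfr2 and Slc40a1 did not overlap over the livers, while Ftl1 and Hamp, Slc40a1 and Hamp2, Hamp2 and Hmox1, and Hmox1 and Tfrc did.

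**Figure D1:**
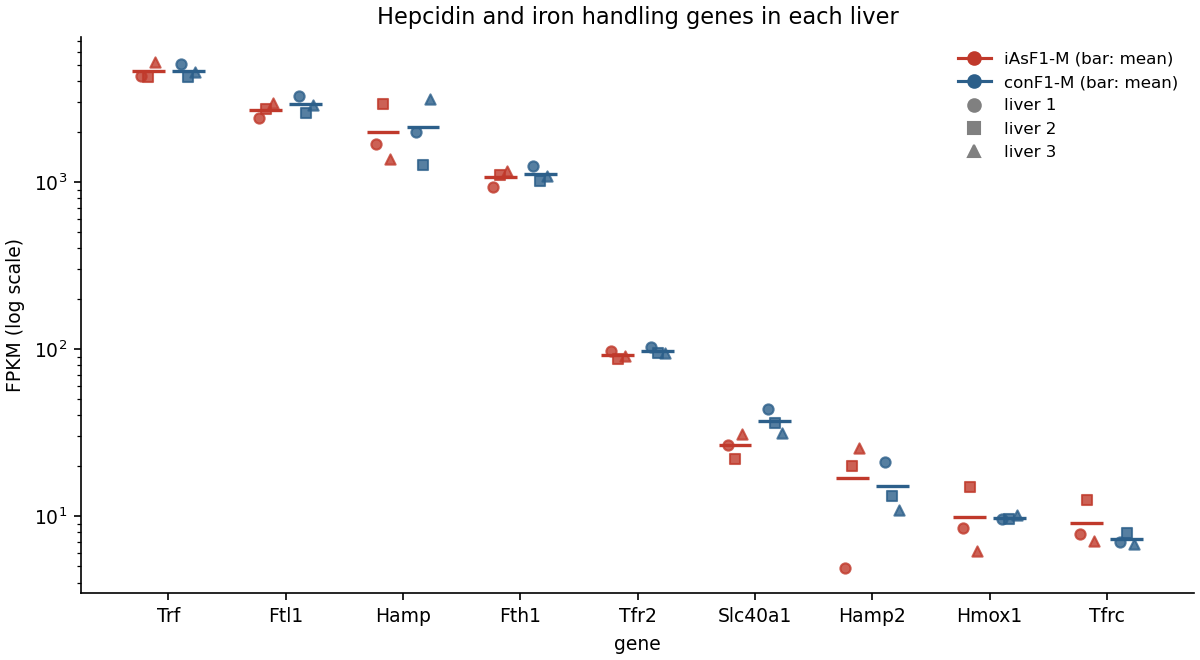
FPKM of each member (log axis) in each of the 3 iAsF1-M livers and the 3 conF1-M livers, with a bar at each group mean and genes ordered by their mean over all livers. The groups overlap for 8 of the 9 genes, and for Slc40a1 all 3 iAsF1-M livers lie below all 3 conF1-M livers.

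None of the 9 members passed an adjusted p under 0.05 in limma's test (0 of 9, adjusted p = 0.58 to 0.98), where 6 of all 9695 genes tested (0.0619%) passed. At an unadjusted p under 0.05, 1 member, Slc40a1, was lower in iAsF1-M livers, beside 6.75% of all genes lower and 1.42% higher, and no member was higher. Slc40a1 was also the 1 member whose groups did not overlap, beside 11.8% of all genes without overlap and lower in iAsF1-M livers and 2.37% without overlap and higher. A count of 1 in 9 lies near that background. Of the members, 8 had a log2 fold change below 0 and 1 above, with a median of -0.07, equal to the median of all genes tested.

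**Figure D2:**
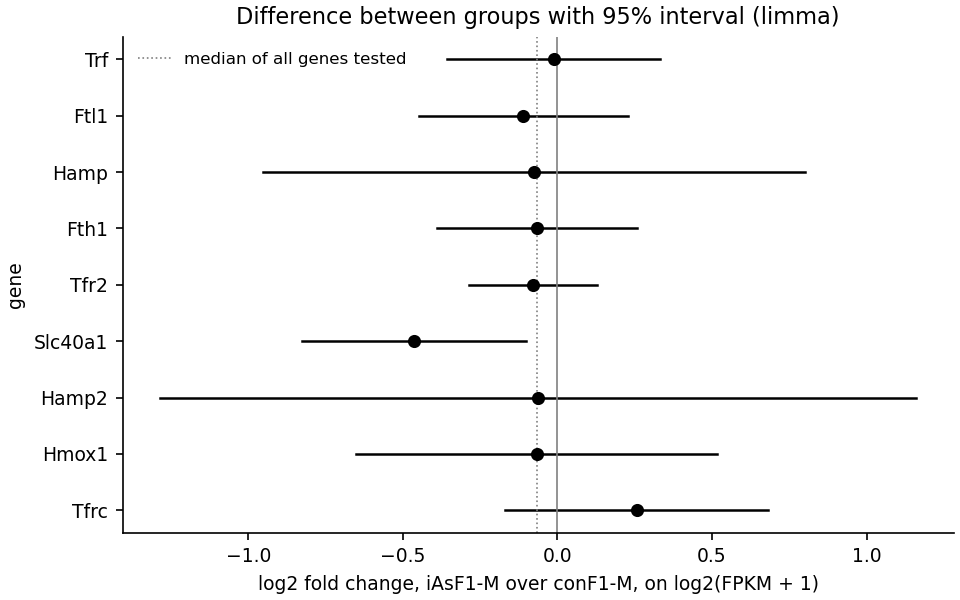
Log2 fold change of each member, iAsF1-M over conF1-M, on log2(FPKM + 1), as points with 95% intervals from limma, and a dotted line at the median of all genes tested. The interval of Slc40a1, from -0.83 to -0.10, is the only one of the 9 that leaves out 0, before adjustment, and those of Hamp and Hamp2 are the widest.

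Hamp, the main hepcidin gene of the mouse (chr7:30942368-30944032, minus strand, GRCm38), varied more between mice of 1 group than between the groups. It measured 1681, 2933 and 1364 FPKM in iAsF1-M livers 1 to 3, against 1979, 1266 and 3149 FPKM in conF1-M livers 1 to 3. Each group held 1 liver well above the other 2, iAsF1-M 2 and conF1-M 3, and the groups overlapped almost entirely. The averages were 1993 ± 829.6 FPKM in iAsF1-M livers and 2131 ± 951 FPKM in conF1-M livers (SD, n = 3 each). The log2 fold change was -0.08 (SE 0.38, limma adjusted p = 0.95), with an interval of -0.95 to 0.80 that leaves room for a change of either sign, and its sign turned under quantile normalization, under library weights and without conF1-M 3, iAsF1-M 1 or iAsF1-M 3.

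Hamp2 (chr7:30922372-30924681, minus strand), the second hepcidin gene of the mouse, lies beside Hamp on the chromosome. It measured 4.92, 20.0 and 25.6 FPKM in iAsF1-M livers, against 21.2, 13.3 and 10.9 FPKM in conF1-M livers. The iAsF1-M livers held both the lowest and the highest value, a 5.20-fold spread over the 6 livers, the largest of the 9 members. The log2 fold change was -0.06 (SE 0.53, limma adjusted p = 0.97), and it ran from -0.48 to 0.60 as livers were left out, the highest without iAsF1-M 1.

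The 2 hepcidin genes did not follow each other from liver to liver. Hamp2 made up 0.292%, 0.678% and 1.84% of the summed hepcidin FPKM in iAsF1-M livers, against 1.06%, 1.04% and 0.345% in conF1-M livers. The liver lowest in Hamp2, iAsF1-M 1, was in the middle for Hamp, and the liver highest in Hamp2, iAsF1-M 3, was next to lowest for Hamp. The sum of both genes was set almost wholly by Hamp, at 2010.0 ± 830.4 FPKM in iAsF1-M livers and 2147 ± 949 FPKM in conF1-M livers (SD, n = 3 each).

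The sequences of the 2 genes are shown because reads that match both may bear on these values. Their transcripts in GENCODE M21 (410 and 420 bases) are identical at 92.4% of aligned positions, with a longest shared run of 87 bases, and how the authors' counting placed reads that match both is not given in the sources used here, so the low Hamp2 values are uncertain. A lincRNA, Gm44662, lies on the other strand over both genes, and strand use is not given either. The last 75 coding bases, which encode the mature hepcidin peptide, are identical at 61 positions. They lie at chr7:30942480-30942554 for Hamp and chr7:30922511-30922585 for Hamp2 (GRCm38, minus strand, 5′ to 3′, differing bases in capitals).
Hamp: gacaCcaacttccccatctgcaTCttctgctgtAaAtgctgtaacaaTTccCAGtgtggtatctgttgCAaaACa
Hamp2: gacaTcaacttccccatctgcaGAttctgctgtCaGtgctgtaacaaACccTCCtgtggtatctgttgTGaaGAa
The 14 differing positions are spread along the stretch, and the longest run shared within it is 17 bases.

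The 250 bases before each start in RefSeq's table were compared because Hamp stood between 53.3 times (iAsF1-M 3) and 341.8 times (iAsF1-M 1) above Hamp2 in FPKM. They lie at chr7:30944030-30944279 for Hamp and chr7:30924182-30924431 for Hamp2 (GRCm38.p6, minus strand, 5′ to 3′), and 89.7% of their aligned positions are identical. The gene spans given above are GENCODE's and start further upstream, so the Hamp2 window lies inside that span and the Hamp window overlaps its edge. Capitals mark the BMP response element core GGCGCC of Hamp with the aligned bases of Hamp2, and the STAT motif TTCCNNGAA as it reads on the other strand.
Hamp: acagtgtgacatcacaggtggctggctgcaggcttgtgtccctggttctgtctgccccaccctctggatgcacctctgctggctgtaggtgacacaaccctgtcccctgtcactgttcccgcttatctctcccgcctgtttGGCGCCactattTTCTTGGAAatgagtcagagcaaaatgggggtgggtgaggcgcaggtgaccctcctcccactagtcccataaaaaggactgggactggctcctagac
Hamp2: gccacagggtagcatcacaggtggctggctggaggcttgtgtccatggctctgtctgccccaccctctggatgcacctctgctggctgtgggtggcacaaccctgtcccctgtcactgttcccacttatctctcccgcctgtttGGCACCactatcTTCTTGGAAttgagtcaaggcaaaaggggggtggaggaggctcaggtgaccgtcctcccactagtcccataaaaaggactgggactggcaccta
GGCGCC starts 109 bases before the start of Hamp, and the aligned bases of Hamp2 differ by G4A, counted from 1 at the 5′ end of the Hamp motif. The STAT motif reads TTCTTGGAA in both. On either strand, GGCGCC is in 11.9% and TTCCNNGAA in 4.81% of the 32851 promoters of 300 bases in the table, and the E-box CACGTG, in 7.15% of them, is in neither hepcidin promoter. Of the other members with a promoter there (6 of the 9 in all), Tfrc holds GGCGCC and none holds either other motif. A match describes letters and not a bound site, and the part of any motif in these levels was not tested.

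The 3 tested genes whose profile over the 6 livers lay nearest to Hamp were Gstp2, Zfp967 and Atoh8, with root mean square differences of 0.25, 0.27 and 0.27 between centred log2 values, where Hamp itself scattered by 0.50 around its mean. Atoh8, a transcription factor known to act on the Hamp promoter, measured 6.95, 8.22 and 4.93 FPKM in iAsF1-M livers, against 8.99, 4.36 and 8.82 FPKM in conF1-M livers. Its 3 highest livers were the 3 highest in Hamp, iAsF1-M 2, conF1-M 1 and conF1-M 3, as its choice by likeness makes likely. Id1, a target of BMP signalling, ranked 5 among all genes tested by the same measure and was looked at only after the values were seen. It measured 3.07, 6.58 and 2.78 FPKM in iAsF1-M livers, against 6.30, 4.18 and 7.08 FPKM in conF1-M livers, with the same 3 livers on top. Those 3 livers were on top for 513 of the 9695 genes tested (5.29%) and for 3 of 24 genes of the hepcidin control list, Acvr2a, Id1 and Atoh8. By root mean square difference, the rest of the 24 lay further from Hamp than Atoh8 and Id1, from rank 543 (Furin) to 9477 (Fgl1). Among them, Smad7 ranked 3835, Id3 4001, Bmp6 4263 and Smad6 8388. This is a description over 6 livers, without a test, and Atoh8 and Id1 were named for lying near Hamp in these same values.

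**Figure D3:**
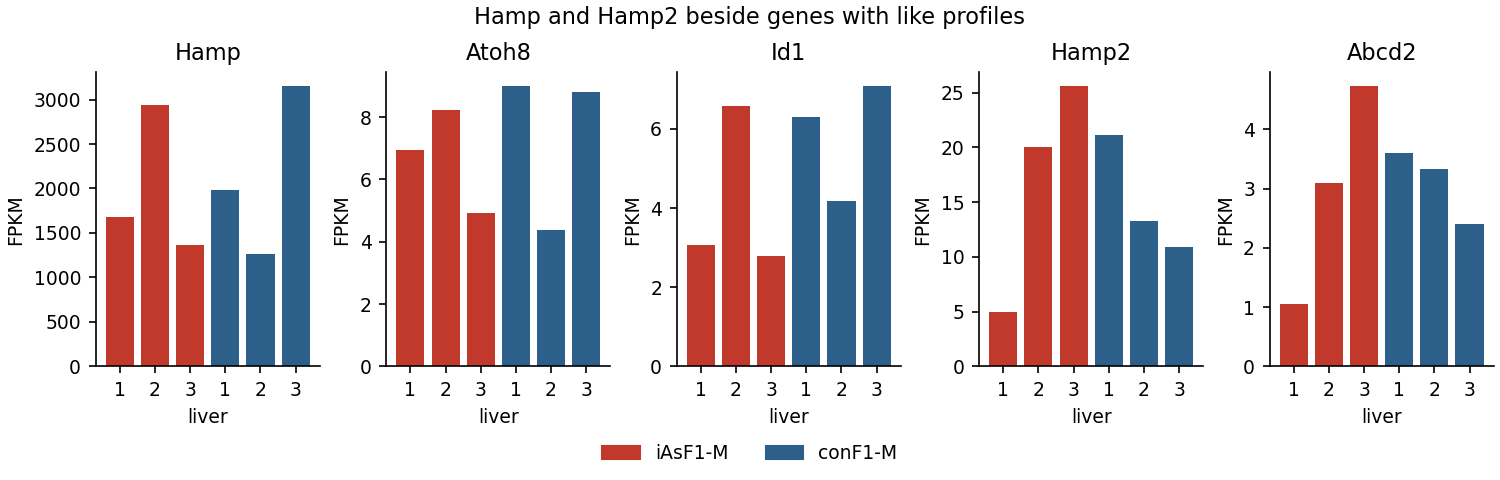
FPKM of Hamp, Atoh8, Id1, Hamp2 and Abcd2 as bars from 0, 1 bar for each iAsF1-M and each conF1-M liver. Hamp, Atoh8 and Id1 are highest in iAsF1-M 2, conF1-M 1 and conF1-M 3, while Hamp2 and Abcd2 are lowest in iAsF1-M 1 and highest in iAsF1-M 3. Atoh8, Id1 and Abcd2 are shown because their profiles lay near those of Hamp or Hamp2.

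Nearest to Hamp2 were Abcd2, Kcnk5 and Spata2l, at differences of 0.31, 0.37 and 0.38, where Hamp2 scattered by 0.72 around its mean. Abcd2, a transporter of peroxisomes, measured 1.05, 3.10 and 4.73 FPKM in iAsF1-M livers, against 3.61, 3.34 and 2.41 FPKM in conF1-M livers. Like Hamp2, it was lowest in iAsF1-M 1 and highest in iAsF1-M 3, as its choice by likeness makes likely. Some acute phase genes stood out in the same liver, and Saa1 measured 239, 18.02 and 34.1 FPKM in iAsF1-M livers, against 29.8, 40.3 and 29.9 FPKM in conF1-M livers. The summed level of the 14 acute phase genes was 8050.0 FPKM in iAsF1-M 1 and 5472 to 6315 FPKM in the other livers. Of the 14, 11 had a log2 fold change above 0 and 3 below. The 1 with an unadjusted p under 0.05 was Apcs, a pentraxin, named after its values were seen, at 64.0, 35.4 and 46.2 FPKM in iAsF1-M livers, against 104, 103 and 88.95 FPKM in conF1-M livers (log2 fold change -1.05, limma adjusted p = 0.36). None of the 14 was at 0, and the part of these genes in the low Hamp2 or the middling Hamp of iAsF1-M 1 was not tested.

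Slc40a1 (chr1:45908068-45926523, minus strand), which encodes ferroportin, was the member with the lowest log2 fold change. It measured 26.8, 21.9 and 31.0 FPKM in iAsF1-M livers, against 43.5, 35.9 and 31.5 FPKM in conF1-M livers. All iAsF1-M livers lay below all conF1-M livers, though iAsF1-M 3 and conF1-M 3 were nearly level. The averages were 26.6 ± 4.53 FPKM in iAsF1-M livers and 37.0 ± 6.03 FPKM in conF1-M livers (SD, n = 3 each), a ratio of 0.718. The log2 fold change was -0.46 (SE 0.16, unadjusted p = 0.019), and limma's adjusted p of 0.58 over all genes did not pass. It stayed below 0 under all 15 alternatives, from -0.58 to -0.34, with adjusted p from 0.14 to 0.99. The unadjusted p was 0.070 without conF1-M 1 and 0.056 without iAsF1-M 2, so that it no longer lay under 0.05, and it ranged from 0.0055 to 0.044 under the other alternatives in limma.

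Ferroportin is made by hepatocytes and, at high levels, by Kupffer cells, the macrophages of the liver. The summed markers of both cell types overlapped between groups, while those of sinusoidal endothelial cells did not. The hepatocyte sum was 62670 to 83470 FPKM in iAsF1-M livers and 75600 to 80340 FPKM in conF1-M livers. In bulk RNA, fewer cells of a type and less RNA per cell cannot be told apart. The summed level of 10 markers of sinusoidal endothelial cells was 57.8 to 69.5 FPKM in iAsF1-M livers and 76.3 to 98.1 FPKM in conF1-M livers, without overlap. Of the 10, 9 had a log2 fold change below 0 and 1, Lyve1, above, with a median of -0.30. At an unadjusted p under 0.05 in limma, 5 were lower, Clec4g, Kdr, Dnase1l3, Fcgr2b and Pecam1, beside 6.75% of all genes lower. The groups overlapped for Stab1, Stab2, Lyve1, Gpr182 and Oit3, and none of the 10 passed the adjusted threshold. Stab2, a receptor that marks these cells, measured 2.46 to 3.63 FPKM in iAsF1-M livers and 3.02 to 4.76 FPKM in conF1-M livers. The summed level of 12 Kupffer cell and macrophage markers was 99.3 to 245 FPKM in iAsF1-M livers and 160 to 183 FPKM in conF1-M livers. Clec4f, a lectin of Kupffer cells, measured 15.1, 18.7 and 12.5 FPKM in iAsF1-M livers, against 23.7, 21.5 and 19.2 FPKM in conF1-M livers, without overlap. The other 11 markers of that list overlapped between groups, and over the 12 the log2 fold change was below 0 for 9 and above 0 for 3, Marco, Adgre1 and C1qa, with a median of -0.13. None of these 22 endothelial and Kupffer cell markers was at 0 in any liver. The liver lowest in Slc40a1, iAsF1-M 2, had the highest Kupffer sum, and the part of any of these cell types in the Slc40a1 values was not tested.

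Hmox1 (chr8:75093621-75100589, plus strand), which opens the heme ring and so frees its iron, had group averages that were nearly level with very different spreads. It measured 8.51, 14.9 and 6.20 FPKM in iAsF1-M livers, against 9.57, 9.65 and 10.1 FPKM in conF1-M livers. The conF1-M livers lay close together, and the iAsF1-M livers lay on both sides of them. The coefficient of variation was 45.5% in iAsF1-M livers and 2.87% in conF1-M livers (n = 3 each), a difference in spread that was not tested. The log2 fold change was -0.07 (SE 0.25, limma adjusted p = 0.94), and it was 0.19 without iAsF1-M 3.

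The genes nearest to Hmox1 were Ticam1, C1qa and Arhgdib, at differences of 0.08, 0.10 and 0.11, where Hmox1 scattered by 0.34 around its mean. C1qa, a complement gene that macrophages express and 1 of the 12 Kupffer cell and macrophage markers, measured 27.3, 41.9 and 19.0 FPKM in iAsF1-M livers, against 29.5, 25.8 and 26.2 FPKM in conF1-M livers. The summed level of those markers was 175.7, 245 and 99.3 FPKM in iAsF1-M livers, against 183, 173 and 160 FPKM in conF1-M livers. Hmox1 and the sum were both highest in iAsF1-M 2 and lowest in iAsF1-M 3. The part of macrophage number in Hmox1 was not tested.

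**Figure D4:**
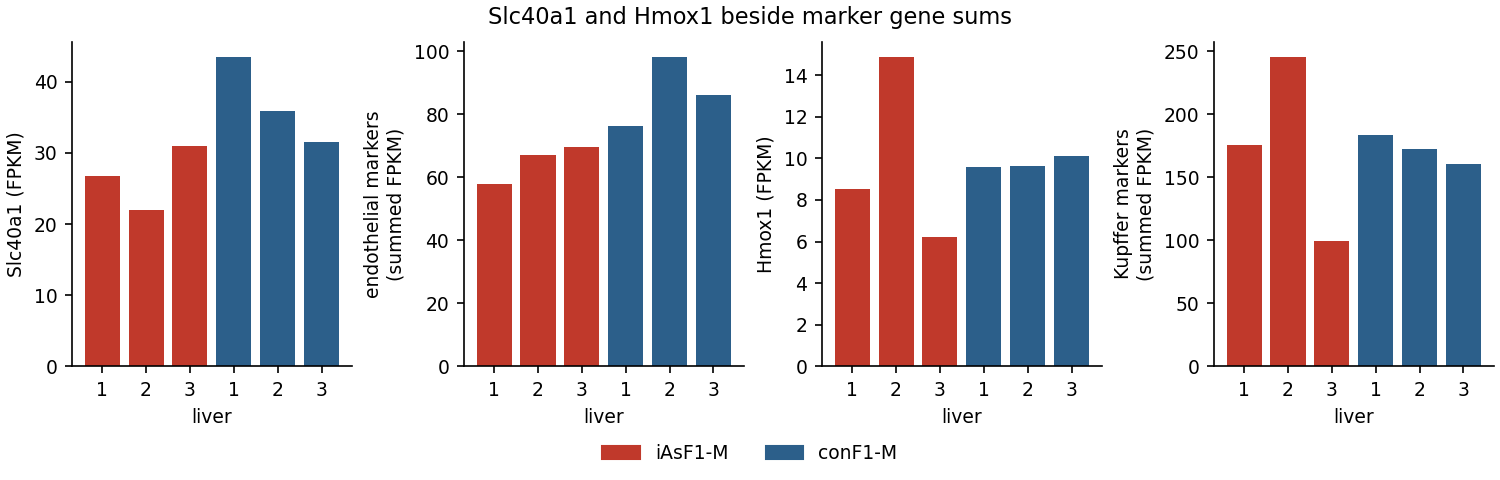
FPKM of Slc40a1 and Hmox1 and the summed FPKM of sinusoidal endothelial and of Kupffer cell and macrophage markers, as bars from 0 for each iAsF1-M and each conF1-M liver. Slc40a1 and the endothelial sum are lower in all 3 iAsF1-M livers than in any conF1-M liver, and Hmox1 and the Kupffer sum are both highest in iAsF1-M 2 and lowest in iAsF1-M 3.

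Trf (chr9:103204001-103230444, minus strand), the iron carrier of the blood, was the most abundant member and close to level between groups. It measured 4284, 4265 and 5213 FPKM in iAsF1-M livers, against 5066, 4247 and 4543 FPKM in conF1-M livers, and the groups overlapped. Its log2 fold change was -0.01 (SE 0.15, limma adjusted p = 0.98), with an interval of -0.36 to 0.33. Gm20425, annotated as coding on the same strand, overlaps Trf, and reads over both cannot be told apart.

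Tfr2 (chr5:137569840-137587481, plus strand), the iron sensor of hepatocytes, was the steadiest member. It measured 97.4, 87.4 and 91.1 FPKM in iAsF1-M livers, against 102, 94.3 and 95.2 FPKM in conF1-M livers, which spans 1.17-fold over the 6 livers. The groups overlapped through iAsF1-M 1 alone. Its log2 fold change was -0.08 (SE 0.09, limma adjusted p = 0.78), and the interval of -0.29 to 0.13 was the narrowest of the 9 members.

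Tfrc (chr16:32608920-32632794, plus strand), the receptor through which most cells take up transferrin iron, was the 1 member with a log2 fold change above 0. It measured 7.80, 12.4 and 7.10 FPKM in iAsF1-M livers, against 7.04, 7.92 and 6.82 FPKM in conF1-M livers. The liver iAsF1-M 2 stood above the rest, and the other 5 livers lay between 6.82 and 7.92 FPKM. The log2 fold change of 0.26 (SE 0.18, limma adjusted p = 0.68) dropped to 0.03 without iAsF1-M 2. Red cell precursors express Tfrc strongly, and their heme enzyme gene Alas2 measured 50.8, 38.8 and 78.2 FPKM in iAsF1-M livers, against 67.6, 69.8 and 65.5 FPKM in conF1-M livers, with its lowest value in the liver highest in Tfrc. The 9 measured erythroid markers summed to 943 to 1588 FPKM in iAsF1-M livers and to 894 to 2517 FPKM in conF1-M livers. Hbb-bs measured 304 to 503 FPKM in iAsF1-M livers and 272 to 819 FPKM in conF1-M livers. Unlike Alas2, both this sum and Hbb-bs were lowest in conF1-M 2. Of the 9 markers, Epb42 was listed at 0 in iAsF1-M 2 and the others in no liver, and the part of red cell precursors in Tfrc was not tested. Tfr2 stood 12.5, 7.03 and 12.8 times above Tfrc in FPKM in iAsF1-M livers, against 14.5, 11.9 and 13.95 times in conF1-M livers.

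The ferritin chains moved together from liver to liver. Fth1 (chr19:9980598-9985098, plus strand), the heavy chain that oxidizes iron, measured 927, 1102 and 1163 FPKM in iAsF1-M livers, against 1249.6, 1006 and 1083 FPKM in conF1-M livers. Ftl1 (chr7:45457944-45459884, minus strand), the light chain that helps form the iron core, measured 2415, 2725 and 2956 FPKM in iAsF1-M livers, against 3265, 2589 and 2894 FPKM in conF1-M livers. Both were lowest in iAsF1-M 1 and highest in conF1-M 1, and the groups overlapped for both. The log2 fold changes were -0.07 for Fth1 (SE 0.14, limma adjusted p = 0.89) and -0.11 for Ftl1 (SE 0.15, limma adjusted p = 0.82).

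The ratio of Ftl1 to Fth1, which does not depend on scaling between livers, was nearly fixed. It was 2.61, 2.47 and 2.54 in iAsF1-M livers, against 2.61, 2.57 and 2.67 in conF1-M livers, a 1.08-fold span where Ftl1 alone spanned 1.35-fold. The averages were 2.54 ± 0.066 in iAsF1-M livers and 2.62 ± 0.049 in conF1-M livers (SD, n = 3 each), described without a test. Both ferritin genes have processed copies in the mouse genome, and how reads shared with such copies were counted is not given in the sources used here.

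Ferritin, ferroportin and Tfrc transcripts carry iron-responsive elements, hairpins that iron regulatory proteins bind when iron is scarce, and these are shown because 4 of the members share them. In front of the coding stretch they hold back translation, and behind it, in Tfrc, they keep the transcript from decay. A search of the GENCODE M21 transcripts for the loop CAGTGN, with a C before the 5 bases on its 5′ side and those 5 bases able to pair with the 5 after it, found 1 match each in the 5′ UTR of Fth1, Ftl1 and Slc40a1 and 4 in the 3′ UTR of Tfrc. The same pattern is in 1.24% of the longest coding transcripts of 21877 genes. The matches lie at chr19:9982731-9982760 (Fth1), chr7:45459779-45459808 (Ftl1), chr1:45925465-45925494 (Slc40a1) and, for the first in Tfrc, chr16:32631218-32631247 (GRCm38, 5′ to 3′ on the gene's strand, the C and the loop in capitals).
Fth1: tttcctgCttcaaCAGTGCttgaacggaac
Ftl1: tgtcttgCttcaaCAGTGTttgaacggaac
Slc40a1: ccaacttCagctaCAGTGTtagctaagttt
Tfrc: taattatCggaagCAGTGCcttccataatt
Protein was not measured, so translation through these hairpins is outside these data.

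Beyond the members, 91 other genes of iron handling on 6 lists were measured and 84 were tested. None passed limma's adjusted p under 0.05 (0 of 84, beside the 0.0619% of all genes). At an unadjusted p under 0.05, 10 were lower in iAsF1-M livers (11.9%, beside 6.75% of all genes) and 1 was higher. Without overlap between groups, 12 were lower (14.3%, beside 11.8%) and 0 were higher. The median log2 fold change was -0.08, against -0.07 over all genes tested.

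The hepcidin control list held 5 of those 10, among 24 tested, with a median log2 fold change of -0.11, which is 20.8% of the list beside 6.75% of all genes tested. Without overlap and lower in iAsF1-M livers were 6 of the 24 (25.0%, beside 11.8%). The 5 at an unadjusted p under 0.05 were Id3, a BMP target, Bmp6, the ligand itself, Smad7 and Smad6, which damp BMP signalling, and Tmprss6, the protease that cuts the hemojuvelin coreceptor and so lowers hepcidin. Id3 measured 9.50, 13.3 and 10.98 FPKM in iAsF1-M livers, against 21.5, 15.5 and 17.5 FPKM in conF1-M livers, without overlap (log2 fold change -0.64, limma adjusted p = 0.54). Bmp6 measured 1.09, 1.32 and 1.47 FPKM in iAsF1-M livers, against 1.58, 1.93 and 2.01 FPKM in conF1-M livers, also without overlap (log2 fold change -0.31, limma adjusted p = 0.59). Both lay lower in every iAsF1-M liver while Hamp overlapped almost entirely, and the endothelial marker sum given above was lower in those same livers. The part of endothelial cells, the source of Bmp6 in liver, was not tested. Smad7 measured 0.60, 0.96 and 1.32 FPKM in iAsF1-M livers, against 2.08, 1.21 and 2.11 FPKM in conF1-M livers, with an overlap at its upper end (log2 fold change -0.51, limma adjusted p = 0.59).

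**Figure D5:**
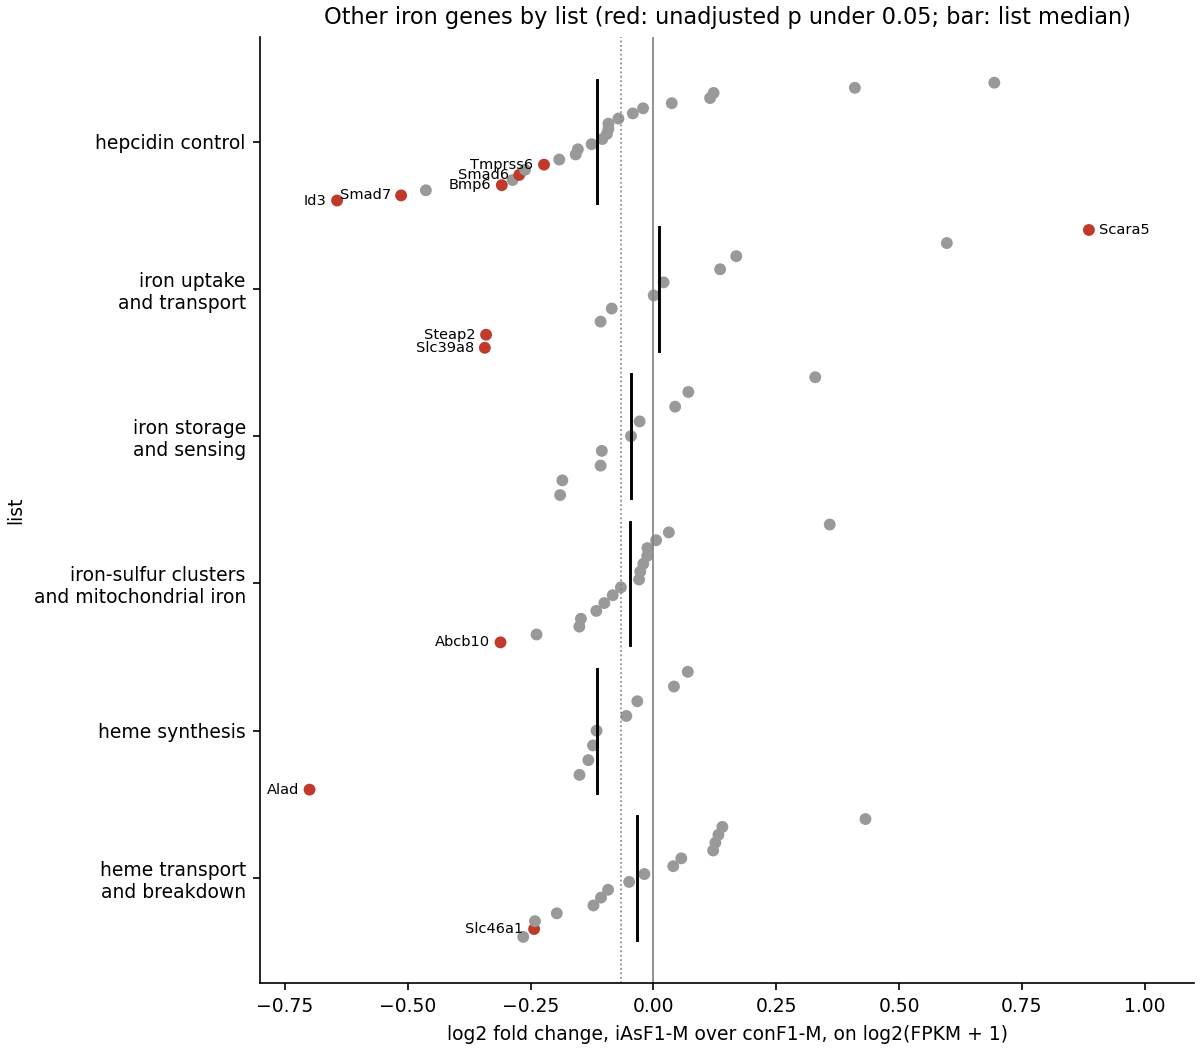
Log2 fold change of each tested gene of the 6 iron lists, iAsF1-M over conF1-M, on log2(FPKM + 1), with genes at an unadjusted p under 0.05 named and in red, a bar at each list's median and a dotted line at the median of all genes tested. Named genes lie below 0 but for Scara5, and none passed the adjusted threshold.

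In heme synthesis, 1 of 9 tested genes had an unadjusted p under 0.05. Alad, which joins aminolevulinic acid in the second step of the pathway, measured 64.7, 64.4 and 91.7 FPKM in iAsF1-M livers, against 136, 92.5 and 132 FPKM in conF1-M livers. The groups did not overlap, by a small margin between iAsF1-M 3 and conF1-M 2 (log2 fold change -0.70, SE 0.19, unadjusted p = 0.0070, limma adjusted p = 0.56). Urod, a further enzyme of the pathway, had a log2 fold change of -0.12 at an adjusted p of 0.68 in limma.

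In iron uptake and transport, 10 genes were tested and had a median of 0.01. Slc39a8, a carrier of metal ions including iron, measured 6.35, 5.86 and 6.45 FPKM in iAsF1-M livers, against 8.41, 8.69 and 7.41 FPKM in conF1-M livers, without overlap (log2 fold change -0.34, limma adjusted p = 0.56). Scara5, a receptor that takes up ferritin, measured 2.47, 2.63 and 1.06 FPKM in iAsF1-M livers, against 0.17, 0.61 and 1.18 FPKM in conF1-M livers (log2 fold change 0.89, limma adjusted p = 0.58). It was the 1 iron gene higher at an unadjusted p under 0.05, though iAsF1-M 3 lay below conF1-M 3. Steap2, a metal reductase, had a log2 fold change of -0.34 and an adjusted p of 0.59 in limma.

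The other lists held few low p-values. Iron storage and sensing had 0 of 9 tested genes at an unadjusted p under 0.05 in limma, and its smallest belonged to Pcbp2, an iron chaperone (log2 fold change -0.19), Ncoa4, the cargo receptor that brings ferritin to breakdown (0.33), and Aco1, the iron sensor IRP1 (-0.19). Ncoa4 measured 42.4, 79.1 and 51.2 FPKM in iAsF1-M livers, against 43.0, 44.5 and 44.6 FPKM in conF1-M livers, high in iAsF1-M 2 as Tfrc and Hmox1 were. Iron-sulfur clusters and mitochondrial iron had 1 of 16, Abcb10, a mitochondrial transporter (-0.31), ahead of Hscb (0.36) and Lyrm4 (-0.15). Heme transport and breakdown had 1 of 16, Slc46a1, a carrier of heme and folate (-0.24), ahead of Spic (0.43), which drives the iron-recycling macrophage, and Pgrmc1 (-0.24).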

How the data were processed

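Liver RNA from 3 iAsF1-M and 3 conF1-M mice was extracted with Trizol, prepared with a TruSeq RNA kit and sequenced as paired-end reads. The authors filtered the reads and aligned them to GRCm38 with HISAT2. The deposited values were FPKM with 2 decimals, and the program and annotation behind them are not given in the sources used here. Converted to fragments at the depth that fitted best, 41.7% to 56.5% of low values came within 0.15 of whole numbers. Chance gives 30% at a fixed depth and more at a best fit, so the depths are rough. The share was too small to rebuild counts, and no count test was used. The 16 identifiers on 2 lines were left out, and 16706 of 16727 were named through GENCODE M21. The scale log2(FPKM + 1) was fitted in R 4.3.3 by limma 3.58.1 (lmFit, eBayes with trend), for genes with a mean of at least 1, two-sided, with Benjamini-Hochberg adjustment over all genes tested and a threshold of 0.05, and the script was checked on simulated data. Groups were taken from the labels.

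Named were all members, the 3 genes of each iron list with the smallest p and any past the threshold, the 3 genes nearest to each member that spanned over 1 on the log2 scale, defining markers and overlapping genes. A gene that this rule names is not reported here. Other genes with an unadjusted p under 0.05, Id1 and Acvr2a were named after their values were seen. So were control genes named for their rank and markers named for their direction or overlap. Members and lists were chosen with earlier results of these data known. Alternatives were pseudocounts of 0.1 and 5, no filter or a mean of at least 5, quantile normalization, median centring, no trend, library weights, a replicate block, a threshold of 0.1 and each liver left out. Sequences came from GENCODE transcripts and RefSeq promoters, aligned with Biopython 1.88.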

Additional observations from a re-analysis of the deposited data

How the results depend on the processing

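No member and no other iron gene had an adjusted p under 0.05 in any alternative fit, or under 0.1 with all 6 livers in the fit described above, and with 3 livers a group changes within the intervals given cannot be told from none. The lowest adjusted p of a member was 0.14 (Slc40a1) and of other iron genes 0.073 (Alad) and 0.080 (Scara5), all without iAsF1-M 3. The count of all genes past the threshold was 6 in the fit described above, was 3 when low genes were kept in, and ran from 3 to 73 as livers were left out (3 without conF1-M 1 or conF1-M 2, 13 without conF1-M 3, 73 without iAsF1-M 3).

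With the replicate number as a block, 5 genes passed, 0 of them members or other iron genes. Same-numbered livers had correlations of 0.17, -0.10 and -0.02 in their deviations from the group means. Livers of unlike number had correlations from -0.13 to 0.17. With 3 livers a group, these values cannot tell whether the numbers pair the mice. The block changed no call of a member.

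No value that changed sign had passed the test, and the cause was not tested. The log2 fold change of Hamp was 0.0059 under quantile normalization and 0.19 under library weights, and those of Tfr2 and Fth1 were 0.0010 and 0.019 under quantile normalization. That of Trf was 0.041 under median centring. Library weights gave 0.13 for Atoh8 and -0.12 for Kcnk5. Ticam1 was at 0.0039 with a pseudocount of 5 and at 0.0425 under quantile normalization, 0.0405 under median centring and 0.0403 under library weights. As livers were left out, the log2 fold change ran from -0.40 to 0.25 for Hamp, -0.48 to 0.60 for Hamp2, -0.11 to 0.056 for Trf, -0.14 to 0.030 for Fth1 and -0.38 to 0.19 for Hmox1. It ran from -0.50 to 0.25 for Abcd2, -0.34 to 0.16 for Arhgdib, -0.39 to 0.085 for Atoh8, -0.24 to 0.31 for C1qa and -0.18 to 0.17 for Gstp2. It ran from -0.23 to 0.53 for Kcnk5, -0.52 to 0.33 for Spata2l, -0.26 to 0.20 for Ticam1 and -0.48 to 0.12 for Zfp967. The median over the other iron genes was -0.02 under quantile normalization, where the median of all genes tested was -0.0044.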
